A study of Homo sapiens with 8 samples.

Results

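The genes described here are 10 stress transcription factor genes of the ATF and C/EBP families: ATF3, JDP2, BATF3, ATF4, ATF5, DDIT3, ATF6, CEBPB, CEBPG and CEBPD. They were chosen by gene symbol with earlier results of these data known, so their counts set beside all genes are descriptions. Each symbol matched 1 row of both expression tables, 10 of 57884 listed genes. All 10 were among the 17994 genes tested, those with at least 1 FPKM (fragments scaled to transcript length and library size) in at least 2 libraries. RNA was sequenced from hTERT-RPE1, human cells of retinal pigment epithelial origin made immortal with telomerase. The 4 groups were cells labelled ATF3(-/-) in medium without serine and glycine for 8 h, cells labelled ATF3(-/-) in complete medium, wild-type cells in medium without serine and glycine for 8 h, and wild-type cells in complete medium. Each group has 2 libraries, 1 from each of 2 experiments carried out a week apart (batches), 8 in all. The sources used here give no allele, clone or method for the knockout, so the genotype is stated as labelled.

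These proteins share the basic leucine zipper, a domain that binds DNA once paired with a partner, so which factor acts depends on which partners are present. When amino acids run short or proteins misfold, kinases phosphorylate the translation factor eIF2, general translation falls and the mRNAs of ATF4 and ATF5 are translated better. ATF4 then raises the transcription of amino acid genes and of further factors, among them ATF3, CEBPB, CEBPG and DDIT3. ATF6 is cut and activated by a separate route, from the membrane of the endoplasmic reticulum. Much of the control over ATF4, ATF5 and ATF6 therefore acts on protein, which was not measured here.

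Absolute depth is unknown, and the commonest ratio between low values puts the other 7 libraries at roughly 1.04 to 1.28 times the depth of batch 1 wild type in complete medium. That ratio rests on 129 to 225 genes per library. For batch 2 it crosses the tables, so it holds their normalization as well as depth. The tables were normalized separately, so differences below are within a batch and a level set across batches is a description only. Across genes, r lay between 0.920 and 0.957 within a batch and between 0.768 and 0.815 across the batches. The 13 markers of retinal pigment epithelium summed to 4.76 to 15.4 FPKM, 1 to 3 of them reached 1 FPKM in a library, OTX2 was listed at 0 in all 8, and RPE65 lay between 0.102 and 0.695 FPKM. The batches differed in epithelial and mesenchymal markers, given here for wild type first. SPARC, a mesenchymal matrix gene, stood at 1.66 and 0.620 FPKM in wild type of batch 2 and at 343 and 343 FPKM in wild type of batch 1, and the keratin KRT19 at 216 and 321 FPKM and at 0.143 and 0.281 FPKM. In wild type the keratins KRT8 and KRT18 went the other way. KRT8 stood at 34.5 and 55.0 FPKM in wild type of batch 2 and at 213 and 249 FPKM in wild type of batch 1. In the same order, KRT18 stood at 39.7 and 47.2 FPKM and at 89.9 and 90.9 FPKM. With the knockout label KRT8 stood at 148 and 185 FPKM in batch 2 and at 156 and 149 FPKM in batch 1. KRT18 with that label went opposite to wild type, at 108.9 and 136.5 FPKM in batch 2 and at 64.4 and 49.8 FPKM in batch 1. SPARC with that label kept the wild-type direction, at 0.0903 and 0.450 FPKM in batch 2 and at 403 and 429 FPKM in batch 1. TWIST1, a mesenchymal transcription factor gene, stood at 12.6 and 12.8 FPKM in wild type of batch 2 and at 0.152 FPKM or listed at 0 in wild type of batch 1. The 4 pairs below therefore join batches that differ in identity markers, and whether both hold the same cells was not tested. Within batch 2 the libraries labelled knockout also stood apart from wild type: the 9 epithelial markers summed to 805 and 958 FPKM there, against 310 and 440 in wild type, and the 7 mesenchymal markers to 190 and 182, against 768 and 696. In batch 1 the epithelial sums were 225 and 202 FPKM with the knockout label and 311 and 343 in wild type, and the mesenchymal sums 1742 and 1531 against 1281 and 1226. Each of these pairs of sums gives serine/glycine-free medium before complete medium. VIM was the largest part of each mesenchymal sum, and FN1 went the other way in batch 1. There FN1 stood at 26.1 and 20.5 FPKM with the knockout label and at 36.1 and 34.5 FPKM in wild type.

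ATF3 represses or activates its targets according to its partner and is itself induced by many stresses. In batch 1 it stood at 4.45 FPKM in serine/glycine-free and 3.38 FPKM in complete medium in the libraries labelled knockout, and at 6.46 and 3.47 FPKM in wild type. In batch 2 it stood at 57.3 and 20.8 FPKM with the knockout label, and at 18.0 and 3.65 FPKM in wild type. Its mRNA was thus measured in all 4 libraries labelled knockout, and those of batch 2 were the highest for their medium among all 8. Whether these transcripts give ATF3 protein cannot be read from a value per gene. The gene (ENSG00000162772) is listed at hg19 chromosome 1, 212738676 to 212794119, and its locus holds 1 other listed gene.

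JDP2 is the closest relative of ATF3 and pairs with JUN proteins. Its levels in batch 1 were 23.6 and 18.0 FPKM with the knockout label in serine/glycine-free and complete medium, and 31.9 and 18.2 FPKM in wild type. In batch 2 they were 20.0 and 10.8 FPKM with the knockout label, against 3.05 and 0.393 FPKM in wild type. The wild-type libraries of batch 2 were thus the lowest of the 8. BATF3, a partner of JUN known in mice for its need in a class of dendritic cells, lies near ATF3 on chromosome 1, its listed locus starting 65.6 kb beyond the end of that of ATF3. BATF3 stood at 18.7 and 10.8 FPKM with the knockout label in batch 1, and at 14.3 and 6.80 FPKM in wild type. In batch 2 it was at 0.336 FPKM and listed at 0 with the knockout label, and at 1.81 and 0.689 FPKM in wild type, so each batch 2 library was below each batch 1 library.

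ATF4, the main effector of amino acid shortage, had the highest FPKM of the 10 genes in 8 of 8 libraries. Its levels in batch 1 were 288 and 159 FPKM with the knockout label in serine/glycine-free and complete medium, and 300 and 171 FPKM in wild type. In batch 2 they were 179 and 95.6 FPKM with the knockout label, and 171 and 56.1 FPKM in wild type. CEBPB, a factor of inflammation and differentiation that also pairs with ATF4, was next in all 8 libraries, at 61.3 and 28.4 FPKM with the knockout label in batch 1 against 65.6 and 19.0 FPKM in wild type. In batch 2 CEBPB stood at 117 and 64.7 FPKM with the knockout label and at 86.5 and 29.1 FPKM in wild type.

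CEBPG, which lacks a classical activation domain and pairs with ATF4, stood at 37.9 and 17.0 FPKM with the knockout label in batch 1, and at 42.8 and 13.8 FPKM in wild type. In batch 2 it stood at 28.1 and 13.2 FPKM with the knockout label, and at 28.2 and 9.53 FPKM in wild type. Within each batch, both serine/glycine-free libraries were above both complete libraries. DDIT3 encodes CHOP, a C/EBP-like partner that promotes cell death under lasting stress. It stood at 17.6 and 6.44 FPKM with the knockout label in batch 1, against 59.6 and 7.07 FPKM in wild type, and at 61.3 and 23.5 FPKM with the knockout label in batch 2, against 53.1 and 14.99 FPKM in wild type. Of the 4 libraries without serine and glycine, the batch 1 one with the knockout label was thus the low one. The listed DDIT3 locus holds 6 other genes, among them MARS, so reads of overlapping genes may have been split.

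The other 3 genes moved in narrower ranges in absolute FPKM, which for CEBPD did not hold in fold terms. ATF6, the sensor of the endoplasmic reticulum, ran from 8.85 to 15.9 FPKM and was higher in serine/glycine-free than in complete medium in each pair. ATF5, a relative of ATF4 linked to mitochondrial stress, ran from 5.94 to 13.1 FPKM, and its listed locus holds 6 other genes, among them NUP62. CEBPD, a C/EBP factor of the acute phase response, ran from 2.49 to 12.6 FPKM, its batch 1 libraries all below its batch 2 libraries. By median over the 8 libraries the order was ATF4 (171 FPKM), CEBPB (63.0), CEBPG (22.6), DDIT3 (20.5), JDP2 (18.1), ATF6 (10.98), ATF5 (10.01), CEBPD (5.69), ATF3 (5.45) and BATF3 (4.31). CEBPG, DDIT3 and JDP2 did not keep their order: CEBPG was above DDIT3 in 3 of 8 libraries and DDIT3 above JDP2 in 5 of 8. JDP2 was above ATF6 and ATF6 above ATF5 in 6 of 8 libraries each. CEBPD was above ATF3 in 2 of 8 and ATF3 above BATF3 in 4 of 8, so the medians at the low end do not rank them.

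The listed hg19 loci place the genes apart from each other, but for ATF3 and BATF3. JDP2 (ENSG00000140044) is on chromosome 14 from 75890386 to 75940814 and BATF3 (ENSG00000123685) on chromosome 1 from 212859760 to 212873327, each sharing its locus with 1 other listed gene. ATF4 (ENSG00000128272, chromosome 22, 39915700 to 39918691), CEBPB (ENSG00000172216, chromosome 20, 48807376 to 48809212) and CEBPG (ENSG00000153879, chromosome 19, 33864236 to 33873592) share theirs with none, nor does CEBPD (ENSG00000221869). The crowded loci are those of DDIT3 (ENSG00000175197, chromosome 12, 57853918 to 57914300) and ATF5 (ENSG00000169136, chromosome 19, 50392911 to 50464429), and ATF6 (ENSG00000118217, chromosome 1, 161736084 to 161933860) shares its locus with 1 other gene.

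**Figure D1:**
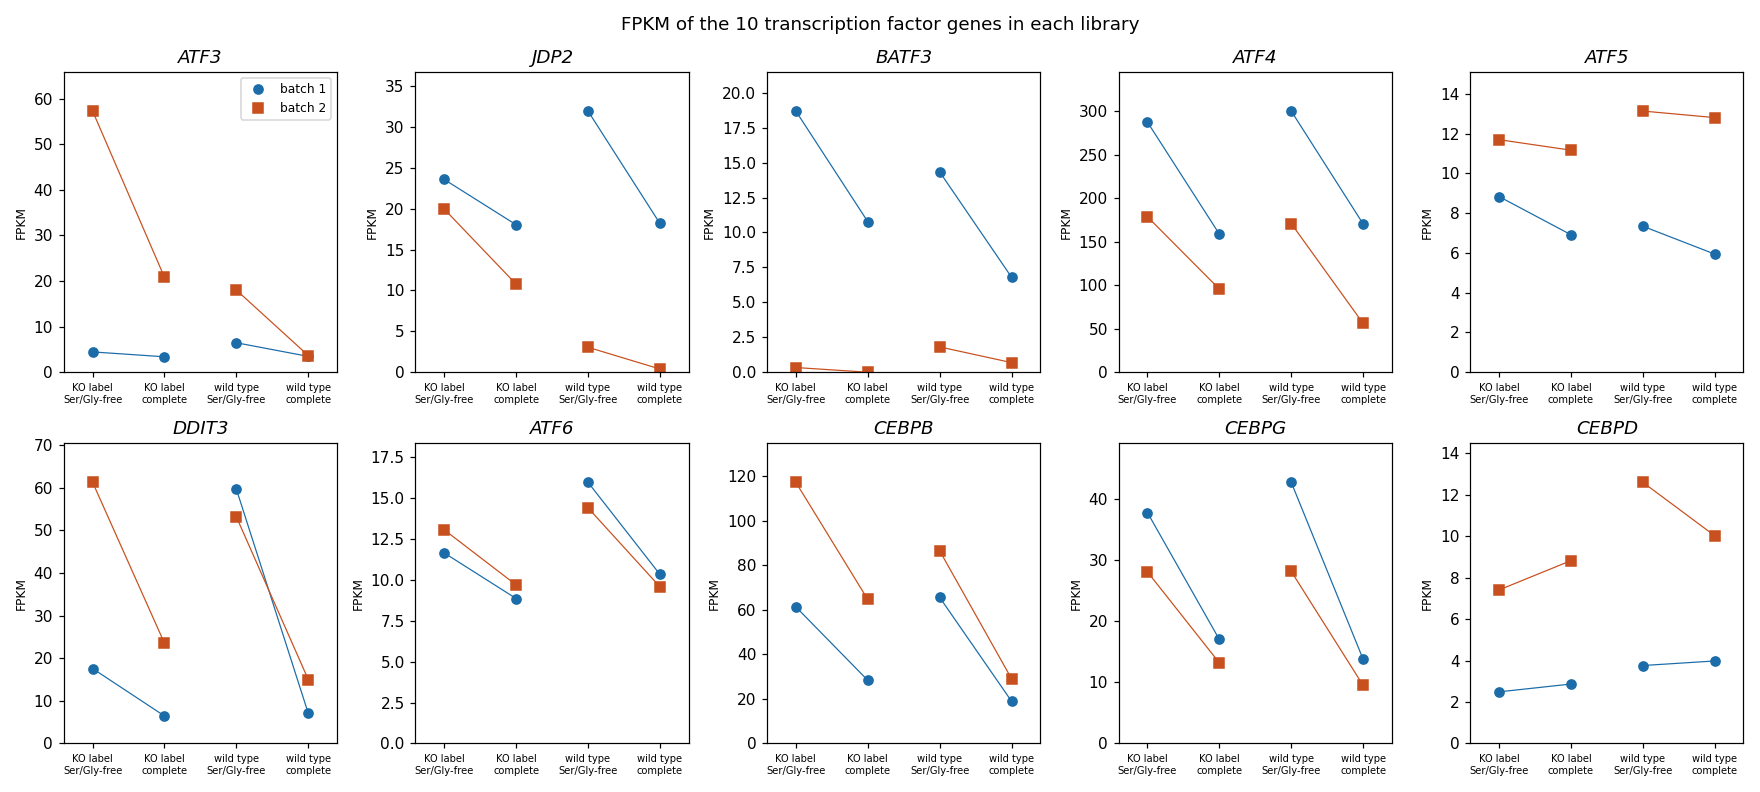
FPKM (linear axis from 0) of each of the 10 genes in the 8 libraries, with blue circles for batch 1, orange squares for batch 2 and lines joining the 2 media of 1 label and batch. ATF3 reaches 57.3 FPKM in the batch 2 serine/glycine-free library labelled knockout, JDP2 is at or below 3.05 FPKM in wild type of batch 2, and BATF3 is at or below 1.81 FPKM in all of batch 2.

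The first comparison asks how these genes respond to loss of serine and glycine. CEBPB and CEBPG rose over the 4 pairs of libraries that share a label and a batch, CEBPB by a log2 difference of 1.30 ± 0.16 (SE, 4 pairs; limma adjusted p = 0.0497) and CEBPG by 1.30 ± 0.12 (limma adjusted p = 0.0329). All log2 differences are of log2(FPKM + 1), which understates the change of low genes. These were 2 of 10 members called, both higher, where 0.417% of all genes tested were called higher, 0.0611% lower and 0.478% in either direction. Those were 75 genes higher and 11 lower, and 65 higher and 20 lower after rescaling each library by its median ratio within the batch. At an unadjusted p under 0.05, 8 of 10 were higher, where 10.7% of all genes were. The 10 genes had a median log2 difference of 0.96, beside 0.0157 over all genes tested. Of the 10, 9 were higher in serine/glycine-free medium in all 4 pairs, the exception being CEBPD, where 14.6% of all genes were.

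CEBPB was 2.16-fold higher in serine/glycine-free medium with the knockout label in batch 1 and 1.81-fold in batch 2, and 3.46-fold and 2.97-fold in wild type. For CEBPG the ratios were 2.22 and 2.13 with the knockout label and 3.10 and 2.96 in wild type. The 4 pairs of CEBPG thus lay closer together than those of DDIT3, which had the highest mean difference of the 10 without passing the test. DDIT3 had ratios of 2.73 and 2.61 with the knockout label and 8.44 and 3.54 in wild type, a log2 difference of 1.83 ± 0.28 (limma adjusted p = 0.0689).

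ATF4 had ratios of 1.81 and 1.87 with the knockout label and 1.76 and 3.05 in wild type, with a log2 difference of 1.04 ± 0.14 (limma adjusted p = 0.0601). For ATF3 the ratios were 1.32 and 2.75 with the knockout label and 1.86 and 4.93 in wild type, a log2 difference of 1.13 ± 0.29 (limma adjusted p = 0.145). Both ATF3 ratios of batch 2 were above both of batch 1. JDP2 had a log2 difference of 0.88 ± 0.20 (limma adjusted p = 0.116), with ratios of 1.31 and 1.85 with the knockout label and 1.76 and 7.76 in wild type; the last is taken from the level of 0.393 FPKM. For BATF3 the log2 difference was 0.72 ± 0.14 (limma adjusted p = 0.102), and no ratio is given for the pair listed at 0.

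ATF6 had pair ratios between 1.31 and 1.54 and a log2 difference of 0.47 ± 0.09 (limma adjusted p = 0.101). The 4 values of ATF5 lay between 0.03 and 0.31 on the log2 scale, with a mean of 0.17 ± 0.10 (limma adjusted p = 0.445). CEBPD had a mean of -0.03 ± 0.14 (limma adjusted p = 0.926), lower in serine/glycine-free medium in 3 pairs and higher in the wild-type pair of batch 2.

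The 4 pairs come from 2 experiments, and an exact sign-flip test over 4 pairs cannot give a p below 0.125. Without both batch 2 libraries labelled knockout, which stood apart in their epithelial markers, the log2 differences of CEBPB and CEBPG were 1.45 ± 0.15 and 1.38 ± 0.13, and both missed the threshold (limma adjusted p = 0.199 each), as they did without any 1 library. CEBPB also missed it with a block of batch alone in place of label and batch (0.0789), with libraries rescaled within a batch (0.0535) and with a pseudocount of 0.1 (0.0600), where CEBPG passed (0.0366, 0.0414 and 0.0426). Within batch 2 alone the log2 differences of CEBPB and CEBPG were 1.19 and 1.25 (limma adjusted p = 0.370 and 0.368), and within batch 1 alone 1.41 and 1.34 (0.348 each).

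**Figure D2:**
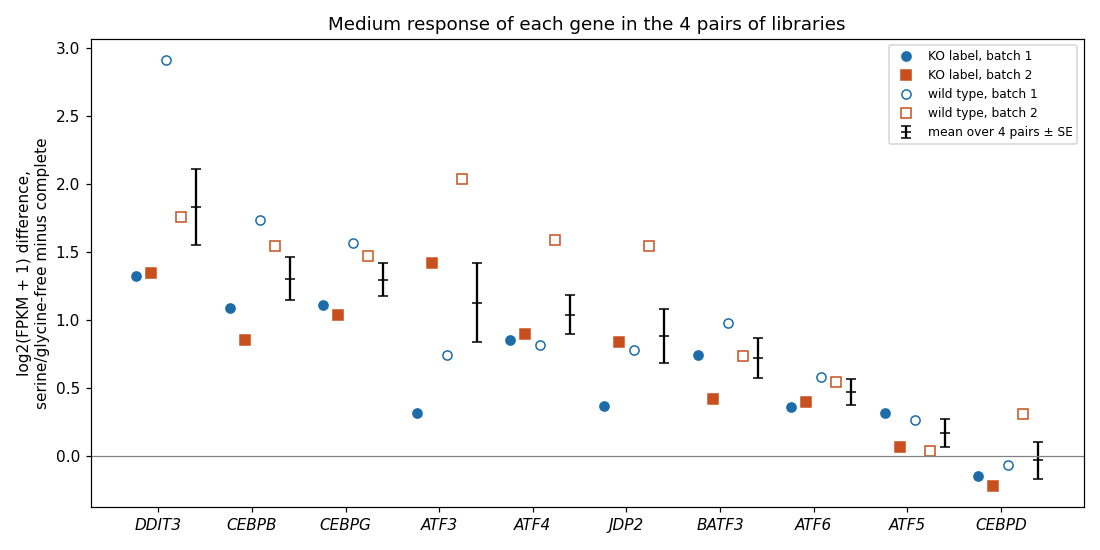
Difference of log2(FPKM + 1), serine/glycine-free minus complete medium, for each gene in the 4 pairs (filled for the knockout label, open for wild type, blue circles for batch 1, orange squares for batch 2), with the mean ± SE over 4 pairs in black. CEBPD lies on both sides of 0, and the other 9 genes lie above it in every pair.

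The promoters of the genes were searched for the letters of sites that these factors bind, and the matches to the element that ATF4 shares with C/EBP partners are printed, since both kinds of factor are among the 10. RefSeq sequences on GRCh38.p14 were matched for 8 members, with 17 start sites, each as 300 bases. The C/EBP-ATF composite element, at which ATF4 pairs with a C/EBP partner, was searched as TGATGNAA on both strands. It was present at 3 of the 17 start sites and in 3.62% of 35116 promoters. The 30 bases around each match are shown 5′ to 3′ on the gene's own strand, which is the plus strand for all 3 genes, with the match in capitals.
CEBPG, chr19:33374060-33374089: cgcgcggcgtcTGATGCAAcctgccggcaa
JDP2, chr14:75427995-75428024: atagccggggcTGATGCAAcccgtcccgcc
ATF3, chr1:212565205-212565234: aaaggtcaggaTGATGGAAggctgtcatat
The match begins at position -42 from a start site of CEBPG and at -16 from one of JDP2, and both carry the same 8 letters, TGATGCAA. In ATF3 it begins at -191 from the more upstream of its listed start sites. The cAMP response element TGACGTCA was in none of the 17 windows and in 1.85% of all promoters. The AP-1 element, searched as TGANTCA, was in 3 of the 17 windows, at 1 site of ATF5 and at 1 site of DDIT3 that lies in the windows of 2 of its start sites, and in 7.71% of all promoters. A match is a description of the letters and not a measured site.

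The second comparison sets the medium response under the knockout label beside that in wild type. With 2 pairs per label in a joint fit, no member passed for either label. Under the knockout label 0 of 10 were called by limma, where 0.0278% of all genes were. In wild type 0 of 10 were called, where 0.0667% were. The labels share an estimate of spread in that fit, so each SE and p-value below holds the spread of both. At an unadjusted p under 0.05 there were 6 members under the knockout label, where 9.69% of all genes were, and 8 in wild type, where 9.54% were. The median log2 difference was 0.73 under the knockout label and 1.18 in wild type. CEBPB had 0.97 ± 0.12 with the knockout label (limma adjusted p = 0.302) and 1.64 ± 0.12 in wild type (limma adjusted p = 0.0802). CEBPG had 1.07 ± 0.12 (limma adjusted p = 0.275) and 1.52 ± 0.12 (limma adjusted p = 0.0861), and DDIT3 had 1.33 ± 0.29 (limma adjusted p = 0.437) and 2.34 ± 0.29 (limma adjusted p = 0.213).

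The difference between these responses was tested itself, knockout label minus wild type. None of the 10 genes was called by limma (adjusted p = 1.00 for each), where 0.0389% of all genes were, and CEBPB was the 1 member with an unadjusted p under 0.05, as were 2.82% of all genes. The difference of responses was -0.67 ± 0.18 for CEBPB, -0.45 ± 0.17 for CEBPG, -1.003 ± 0.41 for DDIT3, -0.56 ± 0.35 for JDP2 and -0.52 ± 0.59 for ATF3. The signed log2 response was lower with the knockout label in both batches in 8 of 10 genes, as in 25.8% of all genes, the exceptions being ATF4 and ATF5. The 8 include CEBPD, whose batch 1 responses were -0.15 with the knockout label and -0.07 in wild type. They also include BATF3, whose difference of responses turned from -0.28 to 0.28 with a pseudocount of 0.1. Without 1 library the difference ran from -1.58 to -0.43 for DDIT3, -0.94 to -0.18 for JDP2 and -1.17 to 0.13 for ATF3. For ATF4 the responses of batch 1 were 0.85 with the knockout label and 0.81 in wild type, and those of batch 2 were 0.90 and 1.59. In batch 2 the complete medium level of ATF3, JDP2, DDIT3, CEBPB, CEBPG and ATF4 was itself higher with the knockout label, as the levels above show. In batch 1 this held for CEBPB (28.4 against 19.0 FPKM) and CEBPG (17.05 against 13.8 FPKM), and not for ATF3, JDP2, DDIT3 and ATF4.

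No member was called by limma for a medium response that differed between the batches, where 0.106% of all genes were called. ATF3 was the 1 member with an unadjusted p under 0.05, as were 10.7% of all genes, its response being larger in batch 2 by 1.20 ± 0.31 on the log2 scale (limma adjusted p = 0.403). For JDP2 the difference of batch 2 minus batch 1 was 0.61 ± 0.32 and for DDIT3 -0.56 ± 0.57. CEBPG had -0.08 ± 0.25 and ATF6 -0.00189 ± 0.18, those closest to 0 of the 10.

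The third comparison sets the knockout label against wild type within each batch, over both media. In batch 1 none of the 10 genes was called by limma, where 0.383% of all genes were, and none had an unadjusted p under 0.05, where 14.7% did. ATF3, the gene the label names, had a log2 difference of -0.24 ± 0.41 (2 libraries per label, limma adjusted p = 0.849). A lower level was thus not shown beyond the spread that the libraries of both batches share in the fit. DDIT3 had -0.91 ± 0.40 (limma adjusted p = 0.371). That value joins a ratio of 0.295 in serine/glycine-free medium, the lowest label ratio of batch 1, and one of 0.912 in complete medium. For BATF3 the log2 difference was 0.48 ± 0.20 (limma adjusted p = 0.366), for CEBPD -0.41 ± 0.19 (0.412) and for ATF6 -0.31 ± 0.13 (0.364).

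In batch 2 the knockout label went with higher JDP2 and ATF3 and lower BATF3. These were 3 of 10 members called, where 9.78% of all genes tested were called. JDP2 was higher by 2.73 ± 0.28 on the log2 scale (limma adjusted p = 0.00632), with ratios of 6.54 in serine/glycine-free and 27.4 in complete medium. ATF3 was higher by 1.92 ± 0.41 (limma adjusted p = 0.0435), with ratios of 3.18 and 5.70, in the libraries labelled as lacking it. BATF3 was lower, with a log2 difference of -0.92 ± 0.20 (limma adjusted p = 0.0494), at levels of 1.81 FPKM and below and with 1 library listed at 0. With a pseudocount of 0.1 the value for BATF3 was -2.56 (limma adjusted p = 0.0221), so its size depends on the pseudocount. CEBPB had 0.78 ± 0.23 (limma adjusted p = 0.0925), CEBPD -0.43 ± 0.19 (limma adjusted p = 0.229), ATF4 0.41 ± 0.20 (limma adjusted p = 0.277) and DDIT3 0.41 ± 0.40 (limma adjusted p = 0.592). Without 1 library these ran from 0.48 to 1.08 for CEBPB, -0.65 to -0.21 for CEBPD, 0.0426 to 0.78 for ATF4 and 0.0832 to 0.73 for DDIT3.

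The libraries of a label within a batch are 1 experiment in 2 media. The spread behind these p-values comes from all 8 libraries of both batches, around 1 shared medium response. It is not a spread between repeats of a label within a batch. Both media of the batch 2 cells labelled knockout also had all 9 epithelial markers at 1 FPKM or more, against 6 and 5 of the 9 in wild type, and their part in the differences of JDP2, ATF3 and BATF3 was not tested. JDP2 missed the threshold without either batch 2 library labelled knockout (limma adjusted p = 0.0751 without the serine/glycine-free and 0.0787 without the complete library), and ATF3 and BATF3 without any 1 of the 8 libraries (0.0510 to 0.232 for ATF3 and 0.0834 to 0.216 for BATF3).

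The label contrasts of the 2 batches were then set against each other. JDP2 differed, with batch 2 minus batch 1 at 2.94 ± 0.39 on the log2 scale (limma adjusted p = 0.0231), and was 1 of 10 members called, where 3.91% of all genes were. BATF3 had -1.39 ± 0.29 (limma adjusted p = 0.0624) and ATF3 2.16 ± 0.58 (limma adjusted p = 0.104), neither passing, and with a pseudocount of 0.1 BATF3 had -3.08 (limma adjusted p = 0.0556). DDIT3 had 1.32 ± 0.56 (limma adjusted p = 0.243). In 6 genes, ATF3, ATF4, ATF5, JDP2, DDIT3 and BATF3, the label difference in both media of batch 1 was opposite in sign to that in both media of batch 2, where 19.5% of all genes showed this. Some of these signs rest on small differences, as in complete medium of batch 1 for JDP2 (-0.01) and ATF3 (-0.03). The batch 1 label difference of ATF3, ATF4 and JDP2 over both media changed sign in fits with 1 library left out. The JDP2 call was lost without any 1 library (limma adjusted p between 0.0672 and 0.127), except that of batch 2 wild type without serine and glycine (0.0408).

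**Figure D3:**
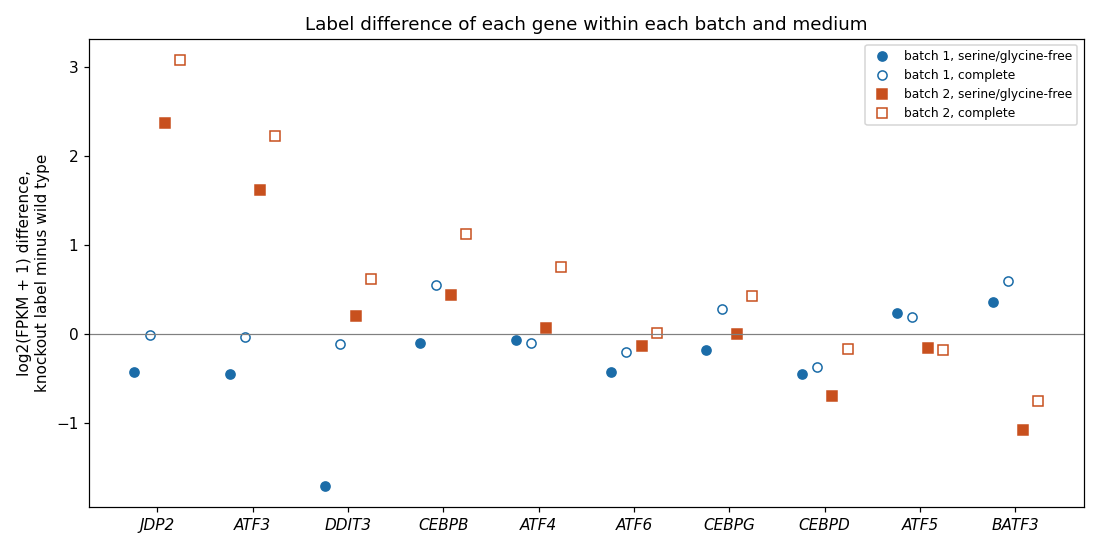
Difference of log2(FPKM + 1), knockout label minus wild type, for each gene in batch 1 (blue circles) and batch 2 (orange squares), filled for serine/glycine-free and open for complete medium. JDP2 lies at 2.37 and 3.08 in batch 2 against -0.42 and -0.01 in batch 1, and BATF3 lies below 0 in batch 2 and above 0 in batch 1.

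The rest of the pathway was followed in 7 lists, counted over the 4 pairs of the medium response. Over all genes tested 0.417% were called higher and 0.0611% lower, the shares against which each list's count stands. The lists were also chosen with earlier results of these data known, so their counts and medians are descriptions and not an independent test. Of the targets of ATF4 and CHOP, 5 of 14 were called higher and 0 lower, with a median log2 difference of 1.46, beside 0.0157 over all genes tested. The 5 were SLC7A11, a cystine transporter subunit (2.19 ± 0.15; limma adjusted p = 0.0251), SLC3A2, its partner chain (1.43 ± 0.12; 0.0289), ASNS, asparagine synthetase (2.20 ± 0.24; 0.0460), SESN2, an inhibitor of mTORC1 signalling (2.46 ± 0.27; 0.0460), and PSAT1 of serine synthesis (1.67 ± 0.19; 0.0465). Of the 14 targets, 12 were higher in all 4 pairs.

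Among the eIF2 kinases and their feedback genes, 2 of 9 were called higher and 0 lower, with a median of -0.11. TRIB3, a pseudokinase that binds ATF4, had 2.80 ± 0.26 (limma adjusted p = 0.0329). PPP1R15A, which encodes the eIF2 phosphatase subunit GADD34, had 1.38 ± 0.08 (limma adjusted p = 0.0251), at 23.7 FPKM in serine/glycine-free against 8.29 FPKM in complete medium with the knockout label in batch 1, and 41.4 against 15.9 FPKM in batch 2. The wild-type levels of PPP1R15A were 22.1 against 7.52 FPKM in batch 1 and 30.9 against 11.5 FPKM in batch 2. The kinase gene EIF2AK4, whose protein GCN2 senses uncharged tRNA, had -0.15 ± 0.08 (limma adjusted p = 0.388) over the 4 pairs. Between labels in batch 2, EIF2AK4 was lower with the knockout label, by a log2 difference of -0.58 ± 0.12 (limma adjusted p = 0.0392).

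Of the other stress factors with a basic leucine zipper, 1 of 13 was called higher and 0 lower, with a median of 0.23. It was XBP1, a factor of the unfolded protein response, at 1.16 ± 0.10 (limma adjusted p = 0.0289). Its levels were 60.3 FPKM in serine/glycine-free against 28.3 FPKM in complete medium with the knockout label in batch 1, and 98.1 against 48.4 FPKM in batch 2. In wild type they were 110 against 50.7 FPKM and 89.3 against 31.6 FPKM. XBP1 was also called for a label contrast that differed between batches, by 1.21 ± 0.19 (limma adjusted p = 0.0358), where 3.91% of all genes were. Its label difference was 0.37 ± 0.14 in batch 2 (limma adjusted p = 0.161) and -0.84 ± 0.14 in batch 1 (limma adjusted p = 0.0873), neither called. Of 10 ATF6 targets, 1 was called higher and 0 lower, with a median of -0.14. That gene was HERPUD1, which acts in the disposal of misfolded proteins (1.097 ± 0.11; limma adjusted p = 0.0383). HSPA5, the main chaperone of the endoplasmic reticulum and a standard ATF6 target, had 0.09 ± 0.16 (limma adjusted p = 0.812).

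None of the other 3 lists had a member called in the medium response. Of 12 other ATF and CREB genes tested the median was 0.06, with the smallest p for ATF1 (0.49 ± 0.13; limma adjusted p = 0.154), CREB5 (1.24 ± 0.35; 0.166) and CREM (0.23 ± 0.11; 0.336). Of 6 AP-1 and BATF partners tested the median was 0.07, with FOSL2 at -0.39 ± 0.24, JUN at 0.14 ± 0.14 and JUNB at 0.21 ± 0.22. The single other C/EBP gene tested, CEBPA, had -0.27 ± 0.25 at levels of 1.21 FPKM and below. Between labels in batch 2, 4 of the 65 tested genes of the 7 lists were called, 6.15%, where 9.78% of all genes were. FOS (1.70 ± 0.22; limma adjusted p = 0.0114) and JUNB (1.48 ± 0.31; 0.0427) of the AP-1 list and SLC3A2 of the target list (0.73 ± 0.16; 0.0497) were called higher with the knockout label, and EIF2AK4 lower. The levels of FOS were low, at most 4.33 FPKM in any library. In batch 2 FOS stood at 3.28 and 2.79 FPKM with the knockout label in serine/glycine-free and complete medium, against 0.105 and 0.395 FPKM in wild type. FOS was also called for a label contrast that differed between the batches (2.37 ± 0.31, limma adjusted p = 0.0215). With XBP1 that made 2 of the 65 list genes, 3.08%, where 3.91% of all genes were called.

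**Figure D4:**
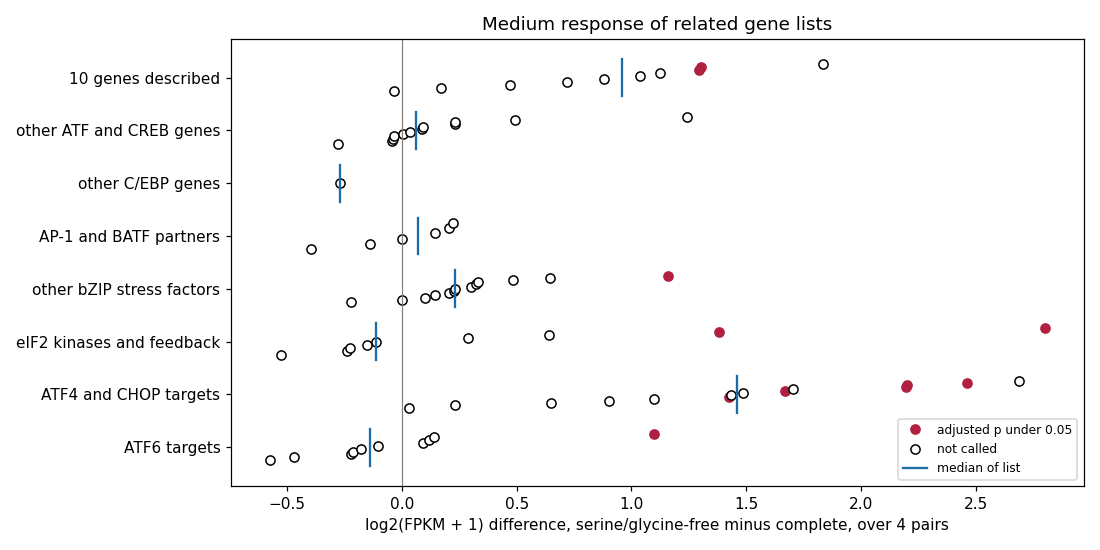
Mean difference of log2(FPKM + 1), serine/glycine-free minus complete medium, over 4 pairs, for the 10 genes and 7 related lists; each point is a gene, red where the limma adjusted p is under 0.05, and the blue line is the list's median. The ATF4 and CHOP targets have a median of 1.46, and the ATF6 targets a median of -0.14 with HERPUD1 at 1.097.

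Genes whose pattern was most like that of ATF3 were ranked by Pearson's r of batch-centred log2(FPKM + 1) over the 8 libraries, among 10279 other genes with a mean of at least 5 FPKM. The top 5 were IL6 (r = 0.989), MTHFD2L (0.987), CDK5RAP1 (0.987), DPM1 (0.986) and STC2 (0.985). These are descriptions, since the 8 libraries share 2 batches and ATF3 varied mostly in batch 2. IL6, an inflammatory cytokine, stood at 361 and 47.0 FPKM with the knockout label in serine/glycine-free and complete medium of batch 2, against 53.8 and 3.52 FPKM in wild type, and below 1 FPKM in all of batch 1. STC2, a secreted glycoprotein that also stands in the ATF4 and CHOP target list, stood at 406 and 138 FPKM with the knockout label in batch 2, against 148 and 25.3 FPKM in wild type, and at 0.354 FPKM or less in batch 1.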

How the data were processed

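RNA was sequenced from 8 cultures of hTERT-RPE1 cells, per the labels. Each batch has its own table of FPKM values as deposited. Per the submitters' processing notes, the tools were TopHat, Cufflinks and Cuffdiff and the build was hg19, with no versions. Depth was not recoverable as read counts, so no counting interval is given. An exact 0 can be a failed estimate.

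Groups came from the sample titles. From the FPKM values, limma 3.58.1 in R 4.3.3 was fitted to log2(FPKM + 1) of 17994 genes (at least 1 FPKM in at least 2 libraries), with each label and batch as a block, a trended prior, two-sided p-values and Benjamini-Hochberg adjustment over all genes (threshold 0.05). The fit over 4 pairs had 3 residual and 2.72 prior degrees of freedom. The series text says that a number marks a shared batch, and the deviations of libraries with 1 number had r of 0.650 to 0.775 in 6 pairs. A block of batch alone leaves label differences that vary with batch in the spread, and it was an alternative. The steps were tested on simulated data.

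The 10 genes and the related lists were chosen with earlier results of these data known. Named are all 10 genes, list members called or else the 3 with the smallest p in the medium response (HSPA5 and, for the medium response, EIF2AK4 were added after their values were seen), and the 5 genes most like ATF3. Loci are hg19, 1-based.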

Additional observations from a re-analysis of the deposited data

Results flagged for a closer look

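JDP2 differed between the batches in its label contrast by a test of that difference itself, with a log2 difference of 2.94 ± 0.39 for batch 2 minus batch 1 (limma adjusted p = 0.0231). In batch 2 the libraries labelled knockout stood at 20.0 and 10.8 FPKM, against 3.05 and 0.393 FPKM in wild type. In batch 1 they stood at 23.6 and 18.0 FPKM, against 31.9 and 18.2 FPKM in wild type. The tables were normalized separately, so levels set across the batches are a description only. The wild-type libraries of the batches also differ in identity markers, with SPARC at 1.66 and 0.620 FPKM in batch 2 and 343 and 343 FPKM in batch 1, and the part of this in the JDP2 difference was not tested.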

How the results depend on the processing

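Over the 4 pairs, 2 members were called (CEBPB and CEBPG) and 86 genes in all. CEBPG alone (1 member) was called with a pseudocount of 0.1, with libraries rescaled within a batch and with the replicate block of batch alone. With a filter on mean FPKM of at least 5 there were 4 (ATF4 and DDIT3 as well). There were 0 members with no filter, with a prior without trend, with no replicate block, without both batch 2 libraries labelled knockout, and with batch 1 or batch 2 alone (both chosen after seeing the data); 0 of all genes were called in each of those 6. Leaving out 1 library gave 0 members and 0 to 8 genes. For ATF3, the log2 difference was 0.53 in batch 1 alone and 1.72 in batch 2 alone. For JDP2 it was 0.57 and 1.19. CEBPD turned to 0.0300 without both batch 2 libraries labelled knockout and 0.0397 in batch 2 alone, and ran from -0.146 to 0.0300 with 1 library left out.

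For the label in batch 2, 3 members were called, 0 with no filter, 2 under each other alternative setting and 0 to 1 with 1 library left out; for its difference between batches 1 was called, 0 with a pseudocount of 0.1 or no filter, and 0 to 1 with 1 library left out. The other 5 comparisons had 0 members called under every alternative run. Counts over all genes ran from 0 to 60 (5 in the reported fit) for the response with the knockout label, 0 to 12 (12) in wild type, 0 to 37 (7) for its dependence on label, 0 to 18 (19) for its dependence on batch, 12 to 290 (69) for the label in batch 1, 152 to 1718 (1760) in batch 2 and 37 to 722 (703) for their difference.

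CEBPB was called in 1 of 18 alternatives and CEBPG in 4. For the medium response over 4 pairs, leaving out either library of a pair removes that pair and gives the same log2 difference. The 18 alternatives are therefore not all separate checks. Without 1 library the label difference of DDIT3 ran from -1.63 to -0.19 in batch 1, and its difference between batches from 0.60 to 2.04.

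Some small differences changed sign; the cause was not tested. With a pseudocount of 0.1, BATF3 went to 0.28 for the dependence of the medium response on label and 0.77 for that on batch, and CEBPD to 0.0475 for the label contrast between batches. Rescaling moved ATF6 to 0.000106 for the label in batch 2. With 1 library left out, the dependence of the response on label ran from -1.17 to 0.13 for ATF3, -0.72 to 0.0614 for ATF4 and -0.0891 to 0.16 for ATF5. Its dependence on batch ran from -0.11 to 0.11 for ATF6, -0.56 to 0.13 for CEBPB, -0.12 to 0.41 for CEBPD, -0.31 to 0.15 for CEBPG and -1.36 to 0.23 for DDIT3. The label in batch 1 ran from -0.78 to 0.30 for ATF3, -0.23 to 0.0684 for ATF4, -0.0597 to 0.52 for CEBPB, -0.12 to 0.24 for CEBPG and -0.56 to 0.12 for JDP2. The label contrast between batches ran from -0.25 to 0.20 for CEBPD and -0.0206 to 0.34 for CEBPG, and the wild-type response of CEBPD from -0.0654 to 0.30. Fits without the replicate block were not possible for contrasts that the batch defines.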
